A study of Arabidopsis thaliana with 2 samples.

Results

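LEAFY (LFY) peaks that lay between genes or at the 3' ends of genes were examined in inflorescences of Arabidopsis thaliana. They were the rows of the peak list whose annotation reads Intergenic, TTS (the region around a transcription termination site) or 3' UTR, and they made up 203 of the 529 peaks. Of these, 121 were intergenic, 75 were TTS peaks and 7 were 3' UTR peaks. The class follows the position of the peak centre and was not chosen from a measured value. All 203 peaks were kept, and no filter was applied.

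The list came from chromatin immunoprecipitation and sequencing (ChIP-seq). The 2 libraries shared genotype, construct and treatment: plants were ap1 cal1 mutants with the construct 35S;LFY-GR, were grown for 4 weeks, and were harvested 4 h after treatment with 10 μM dexamethasone. One group, with 1 library, was precipitated with rabbit polyclonal serum raised against LFY, and the other, also with 1 library, was the input. APETALA1 (AP1) and CAULIFLOWER (CAL), the genes mutated in these plants, encode MADS-box factors that promote floral meristem identity, and the double mutant makes inflorescence-like meristems in place of flowers. LFY-GR is LFY joined to the hormone-binding domain of the glucocorticoid receptor, which dexamethasone releases into the nucleus, and the 35S promoter drives it in most cell types rather than in the LFY domain alone. No library without dexamethasone was analysed here, so a peak cannot be tied to the activation of the fusion. The serum can also recognise LFY that carries no GR domain. Peaks carry no expression values, so the tissue label could not be checked against markers.

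LFY is a plant transcription factor that directs new meristems at the flanks of the shoot to become flowers, and it acts with the F-box protein UNUSUAL FLORAL ORGANS (UFO) at part of its targets. In the compact Arabidopsis genome many regulatory sequences lie close upstream of a gene, but some lie farther out or beyond the 3' end. The inflorescence identity gene TERMINAL FLOWER 1 (TFL1) is known for regulatory sequence 3' of its coding region. A peak beyond the promoter is assigned to the gene with the nearest transcription start site (TSS), and that gene need not be the one that the bound site regulates.

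The measurement behind each peak was the score that the authors' peak caller gave it, and it was used only to rank peaks within the list. Read counts and input signal were not analysed here, so the depth is unknown. With 1 library a group there is no replicate error and no test between conditions, and no test was made between classes of peaks. Medians are given with 95% binomial intervals of the median and shares with 95% Wilson intervals. Both cover counting error over the peaks of this list only. Distances are between the centre of a peak and the nearest TSS, and all positions are on TAIR10.

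Intergenic peaks were among the strongest peaks of the list. Of the 20 highest scores, 10 were intergenic, 8 were promoter peaks, 1 was a TTS peak and 1 a 3' UTR peak. This was 8.26% of intergenic peaks (4.55 to 14.5) and 3.74% of promoter peaks (1.91 to 7.2), against 3.78% of all peaks. The intervals of intergenic and promoter peaks overlap. The median score was 179 for intergenic peaks (interval 135 to 227), 162 for TTS peaks (102 to 234) and 160 for the 7 3' UTR peaks (76.5 to 1488.3). Promoter peaks, of which there were 214, had a median of 122 (101 to 144), and the 66 exon peaks one of 100.2 (82.1 to 123). Over the 326 peaks outside the 3 classes the median was 116 (101 to 133). The interval of intergenic peaks overlapped that of promoter peaks and lay above that of exon peaks, while the intervals of TTS and 3' UTR peaks overlapped both. On ranks over the whole list, where 0 is the highest score and 100 the lowest, the median percentile was 39.0 for intergenic (31.8 to 49.2), 42.2 for TTS (30.5 to 59.7) and 53.4 for promoter peaks (46.2 to 59.8).

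Each class also held weak peaks. Intergenic scores ran from 50.0 to 2952.3, TTS scores from 53.1 to 1074.2 and 3' UTR scores from 76.5 to 1488.3. Scores above 500 were found for 27 of 121 intergenic peaks (22.3%, 15.8 to 30.5), 9 of 75 TTS peaks (12.0%, 6.44 to 21.3) and 26 of 214 promoter peaks (12.1%, 8.43 to 17.2). Scores under 100 were found for 37 intergenic (30.6%, 23.1 to 39.3), 28 TTS (37.3%, 27.3 to 48.6) and 90 promoter peaks (42.1%, 35.6 to 48.8).

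**Figure D1:**
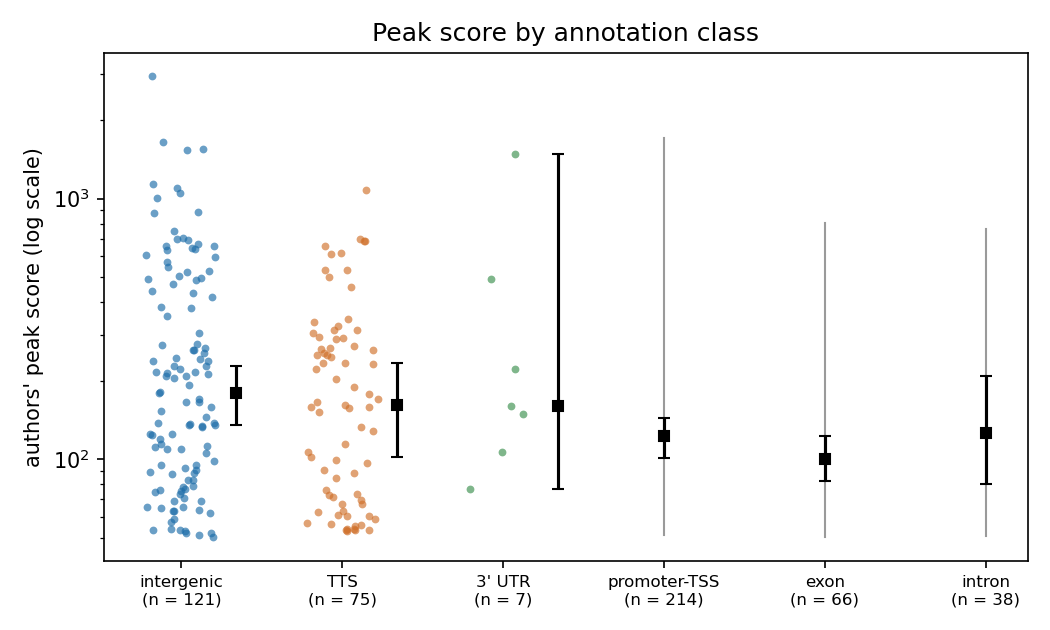
Peak score (log scale) by annotation class; coloured points are single intergenic, TTS and 3' UTR peaks, black squares are class medians with 95% binomial intervals, and grey lines are the full range of the other classes. Intergenic peaks reach 2952.3 and have a median of 179, against 122 for promoter peaks, and the intervals of these medians overlap.

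Most intergenic peaks were upstream of the gene they were assigned to. The centre was upstream in 98 of 121 (81.0%, 73.1 to 87.0) and downstream in 23. Promoter peaks had much the same share, with 174 of 214 upstream (81.3%, 75.6 to 86.0). Part of the share is fixed by the windows of the annotation classes, so it was not tested against an even split. The intergenic class begins where the promoter window ends. Its closest centre was 1002 bp from a TSS, so this class has no peaks nearer than that. The median distance was 2154 bp (1866 to 2565). It was 1973 bp for the upstream peaks (1711 to 2232) and 3293 bp for the downstream peaks (2374 to 3912), for which the body of the gene lies between the peak and its TSS. Centres lay 1 to 2 kb from the TSS in 54 intergenic peaks, 2 to 3 kb in 28 and over 3 kb in 39, and 4 were over 5 kb away. No intergenic interval reached the assigned TSS (0 of 121). Taking 3 counts as the most that a count of 0 allows, the share is up to 2.48%, and the Wilson bound is 3.08%. This count is largely fixed by the window of the class. With centres at least 1002 bp away, only an interval wider than 2000 bp could reach the TSS, and 7 of the 121 were wider than that.

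The strongest intergenic peaks lay upstream of regulators of growth and flowering and beside metabolic and hypothetical genes. GRF5, a growth-regulating factor that promotes cell proliferation in leaves, had the highest score of the list, 2952.3. Its peak, on chromosome 3 from 4605469 to 4607797, was 2329 bp wide and centred 1750 bp upstream. FD, a gene for the bZIP factor that works with the florigen FT, had a score of 1549.4 and a centre 2133 bp upstream, on chromosome 4 from 17001649 to 17003276. LSH3, a boundary gene of the ALOG family, had a score of 1137.0 and a centre 1090 bp upstream, on chromosome 2 from 13276136 to 13277307. The peaks of these 3 regulators rank 1, 4 and 8 in the list.

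SUS1, a sucrose synthase gene, had a score of 1540.3 with the centre 3876 bp upstream, on chromosome 5 from 7058548 to 7059594. TSD2, a putative pectin methyltransferase gene, had a score of 1100.0 at 2837 bp upstream, on chromosome 1 from 29438375 to 29440441. AT5G40810, a cytochrome c1 gene, had a score of 1001.5 at 2131 bp upstream, on chromosome 5 from 16337210 to 16338314. Among these metabolic genes the SUS1 peak was the narrowest at 1047 bp, and the TSD2 peak was 2067 bp wide. The hypothetical genes AT1G13360 (score 1051.4, 1295 bp upstream) and AT2G28671 (score 876.6, 1557 bp upstream) complete the upstream members of the 10 strongest.

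The remaining strong intergenic peaks were downstream of the TSS they were assigned to. The peak on chromosome 5 from 1021260 to 1023294 had a score of 1643.9 and lay 1406 bp downstream of the TSS of the hypothetical gene AT5G03837. This locus was not found in the gene table used here, and by locus code the next gene after it is TFL1 (AT5G03840). The peak on chromosome 2 from 18634454 to 18636267 had a score of 887.3 and was assigned to GOS12, a Golgi SNARE gene, 4448 bp downstream of its TSS. In gene order GOS12 stands between FILAMENTOUS FLOWER (AFO), a YABBY gene of organ polarity, and SAUR36, a gene of the auxin-induced SAUR family. The list also placed a weak promoter peak at AFO itself (score 54.3), 2238 bp from the edge of the GOS12 peak. Another hypothetical gene absent from the table, AT3G62988, had an intergenic peak with a score of 469.7 centred 2785 bp downstream. By code it stands between the auxin receptor gene TIR1 and AT3G62990.

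The 4 intergenic peaks over 5 kb from a TSS were upstream of the genes AT1G71870, SUC1 and ANT. The farthest, with a score of 380.8, was 9339 bp upstream of AT1G71870, a gene of the MATE efflux family, on chromosome 1 from 27043416 to 27045053. The sucrose transporter gene SUC1 had intergenic peaks 7730 and 5854 bp upstream, with scores of 109.7 and 63.4. AT1G71870 and SUC1 are neighbours, so these 3 peaks lie in the same interval between 2 genes. ANT, an AP2-like gene that promotes organ growth, had an intergenic peak 5256 bp upstream (score 158.2) in addition to a promoter peak (97.5). In gene order ANT follows GRF2, another growth-regulating factor gene, which no peak of the list names. The lowest score of the list, 50.0, also belonged to an intergenic peak, at ArRABA1h, a RAB GTPase gene whose neighbour is the auxin response factor gene ETT.

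**Figure D2:**
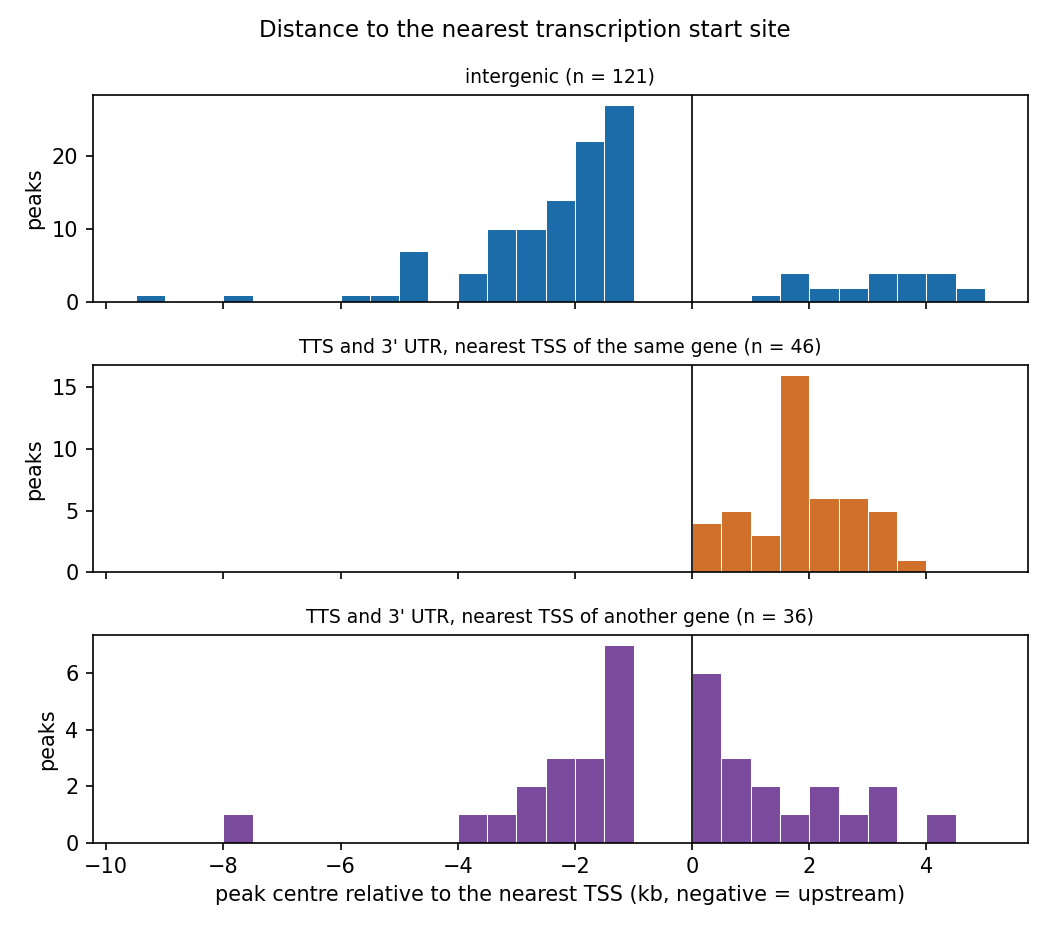
Number of peaks by distance of the centre from the nearest TSS in kb (negative values are upstream), in bins of 500 bp, for intergenic peaks, for TTS and 3' UTR peaks whose nearest TSS belongs to the same gene, and for those whose nearest TSS belongs to another gene. Intergenic peaks number 98 upstream and 23 downstream with a gap around the TSS, while the last set numbers 18 on each side. Part of both splits is fixed by the windows of the annotation classes.

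At 3' ends, the gene that the annotation named was often not the gene with the nearest TSS. The names differed in 36 of 82 TTS and 3' UTR peaks (43.9%, 33.7 to 54.7), with 35 of 75 TTS peaks (46.7%, 35.8 to 57.8) and 1 of 7 3' UTR peaks. For 31 of the 36 both genes were protein-coding in the gene table, and in all 31 cases they were direct neighbours in the order of protein-coding genes. In the order of all genes, 25 of the 33 pairs found in the table were direct neighbours (75.8%, 59.0 to 87.2). Where the nearest TSS is not that of the named gene, it mostly belongs to a neighbour, so these counts of direct neighbours are largely given by the annotation. Of the 36 peaks, 18 were upstream of the nearest TSS and 18 were downstream. Part of this split is also fixed by the windows of the annotation classes. The closest upstream centre was 1018 bp from the TSS, while 9 of the 18 downstream centres were within 1 kb. The 46 peaks with the same gene in both columns were all downstream of its TSS, as the 3' end of a gene has to be. Their median distance was 1820 bp (1588 to 2062), and their median score was 197 (128 to 267). Peaks with another nearest gene had a median score of 123 (69.5 to 246), and these intervals overlap.

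A peak labelled TTS was in part of the cases a peak at the start of the next gene. Of the 75 TTS peaks, 18 (24.0%, 15.8 to 34.8) were centred within 1 kb of a TSS. The interval reached the nearest TSS in 14 of the 75 (18.7%, 11.5 to 28.9). These include the peak at the photosystem I gene PSAF, which was centred 1156 bp away and was 2760 bp wide. In 9 of the 18 the TSS was that of another gene, and all 9 intervals covered it. UFO was such a case: its peak, with a score of 158.4, was labelled as the TTS of AT1G30960 but centred 681 bp downstream of the UFO start. LSH2, an ALOG gene related to LSH3, was another, with a score of 617.2 at the TTS of the threonine aldolase gene THA2 and a centre 361 bp downstream of the LSH2 start, on chromosome 3 from 1215581 to 1217613. In the other 9 of the 18 the TSS was that of the named gene itself, as at MIR172d.

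MIR172d (AT3G55512) encodes a precursor of miR172, which represses AP2-like genes. Its TTS peak had a score of 684.8 and was centred 653 bp downstream of the start, on chromosome 3 from 20588023 to 20589092. The only other miRNA gene assigned to one of the 203 peaks was MIR866A, with an intergenic peak 1157 bp upstream (score 212.7), a name chosen after its value was seen. Nearest genes were protein-coding in the gene table for 187 of the 203 peaks, and 7 peaks had a nearest gene that was not found there.

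The strongest TTS peak had a score of 1074.2 and lay at the 3' end of AT4G23050, on chromosome 4 from 12083986 to 12085202. It was assigned to IQD22, a gene for an IQ-domain protein, and centred 2609 bp upstream of its TSS. A weaker intergenic peak (83.3) stood 145 bp from its edge, 1285 bp upstream of IQD22. YUC4, a gene of auxin biosynthesis, had the next TTS peak, with a score of 696.8 at its own 3' end, on chromosome 5 from 3610525 to 3612997. It was 2473 bp wide and centred 1600 bp downstream of the YUC4 start.

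Further strong TTS peaks were at AT1G56030, a putative ubiquitin ligase gene (score 689.7), and at HMA3, a gene for a heavy-metal ATPase (610.3), both at the 3' end of the gene with the nearest TSS. The TTS peak at the invertase gene A/N-InvF (656.9) was assigned to AT1G72010, the gene of the transcription factor TCP22, and lay 1521 bp upstream of its TSS. FD had a TTS peak with a score of 533.0, on chromosome 4 from 17005681 to 17007563, which was assigned to the neighbouring hypothetical gene AT4G35905. FD therefore had a peak on either side of the gene, and the upstream one had the higher score. AUX1, an auxin influx carrier gene, had a weak peak at its 3' end (73.0) that was assigned to ATMAK3.

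The farthest TTS peak was at the 3' end of RLT2 and 7535 bp upstream of GLK2, with a score of 53.4. The SOC1 peak was equally weak (53.7): it lay at the 3' end of AT2G45670, 3588 bp upstream of SOC1 (AGL20), a MADS-box gene that promotes flowering. Of the 35 TTS peaks with another nearest gene, 17 were upstream of that gene in this way.

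The 7 3' UTR peaks were all centred in the last exon of the named gene. ACR7, a gene for an ACT domain protein, had by far the highest score of them, 1488.3, on chromosome 4 from 11967262 to 11969572, in exon 6 of 6 and 2732 bp downstream of the TSS. IPT5, a gene of cytokinin biosynthesis with 1 exon, followed with 489.8 on chromosome 5 from 6361498 to 6363013. AT3G02250, an O-fucosyltransferase-like gene, had 222.0 and AT1G67750, a putative pectate lyase gene, had 160.3. The scores at AT3G63240, at the ERD6-like sugar transporter gene AT3G05160 and at the prolyl-tRNA synthetase gene OVA6 were 148.4, 106.5 and 76.5. ACR7 and IPT5 stood above the other 5 peaks, which ran from 76.5 to 222.0. The AT3G63240 peak alone was assigned to another gene, AT3G63233, 2288 bp from its TSS.

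Intergenic peaks were narrow beside exon peaks but similar in width to promoter peaks. The median width was 1075 bp for intergenic (1050 to 1105), 1297 bp for TTS (1064 to 1428) and 1516 bp for 3' UTR peaks (1024 to 2311), against 1112 bp for promoter (1076 to 1183) and 1648.5 bp for exon peaks (1306 to 1855). The intervals of intergenic, TTS and promoter peaks overlap, and that of intergenic peaks lies below that of exon peaks. Widths of 900 to 1200 bp held 77 of 121 intergenic peaks (63.6%, 54.8 to 71.7) and 33 of 75 TTS peaks (44.0%, 33.3 to 55.3). They also held 117 of 214 promoter peaks (54.7%, 48.0 to 61.2), and all these intervals overlap. The widest intergenic peak, at AT5G02530, was 2415 bp wide with a score of 255.6. The widest TTS peak, at the photosystem I gene PSAF, was 2760 bp wide and had a score of 67.0. Width and score were therefore not the same order, although the GRF5, ACR7 and YUC4 peaks were both wide and strong.

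**Figure D3:**
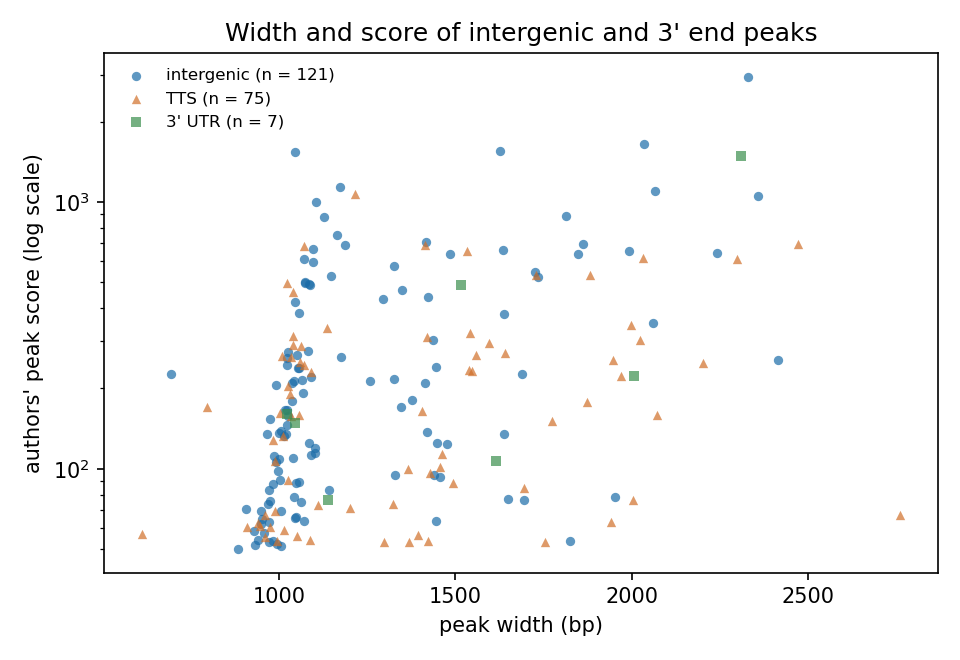
Width in bp against score (log scale) for each intergenic, TTS and 3' UTR peak. Most points stand in a column at 900 to 1200 bp (77 of 121 intergenic peaks) that reaches up to 1540.3 at SUS1, and the widest peak (2760 bp, at PSAF) scores only 67.0.

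Part of the peaks had a second peak close by. Another peak of any class lay within 5 kb of the edge of 28 of 121 intergenic peaks (23.1%, 16.5 to 31.4), 16 of 75 TTS peaks (21.3%, 13.6 to 31.9) and 1 of 7 3' UTR peaks. Such a neighbour was found for 28 of 214 promoter (13.1%, 9.21 to 18.3), 11 of 66 exon (16.7%, 9.57 to 27.4) and 9 of 38 intron peaks (23.7%, 13.0 to 39.2), and all these intervals overlap. The shares depend on the settings: among the 265 higher-scoring peaks they were 12.2% for intergenic and 9.52% for TTS peaks, and for gaps of at most 2 kb they were 13.2% and 12.0%. Within 3 kb of a TSS they were 13.4% and 18.5%. In all, 45 of the 203 peaks fell into 31 groups with gaps of at most 5 kb, and the other 158 stood alone. The groups also held 20 peaks of other classes, and only 12 groups had none of these. With all classes counted, 28 groups had 2 peaks and 3 had 3 peaks. In 13 groups every peak was assigned to the same gene, and in 18 to several.

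Groups in which both peaks were intergenic or at a 3' end were found at several regulators. LSH3 had one on each side, upstream with 1137.0 and 3293 bp downstream with 524.8, on chromosome 2 from 13280237 to 13281971. FDP, the paralogue of FD (BZIP27 in the annotation), had both upstream, with scores of 304.6 and 105.8 at 3692 and 2026 bp. PIP3, an aquaporin gene, had an upstream intergenic peak (209.2) and a peak at its own 3' end (232.8). At LSH3 and FDP the scores differed, with the higher one on the near side at LSH3 and on the far side at FDP, while at PIP3 they were close.

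LCR5, a gene for a small cysteine-rich protein, had weak peaks of 69.3 and 61.3. CRF2, a cytokinin response factor gene, had a peak 2940 bp upstream (243.9), next to a stronger one assigned to the receptor kinase gene AT4G23740 (597.8). WRKY48 had one 1443 bp upstream (227.2), next to a stronger peak assigned to the prefoldin gene PFD3 (699.0). Both stronger peaks were downstream of the TSS they were assigned to, by 4454 and 4966 bp.

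**Figure D4:**
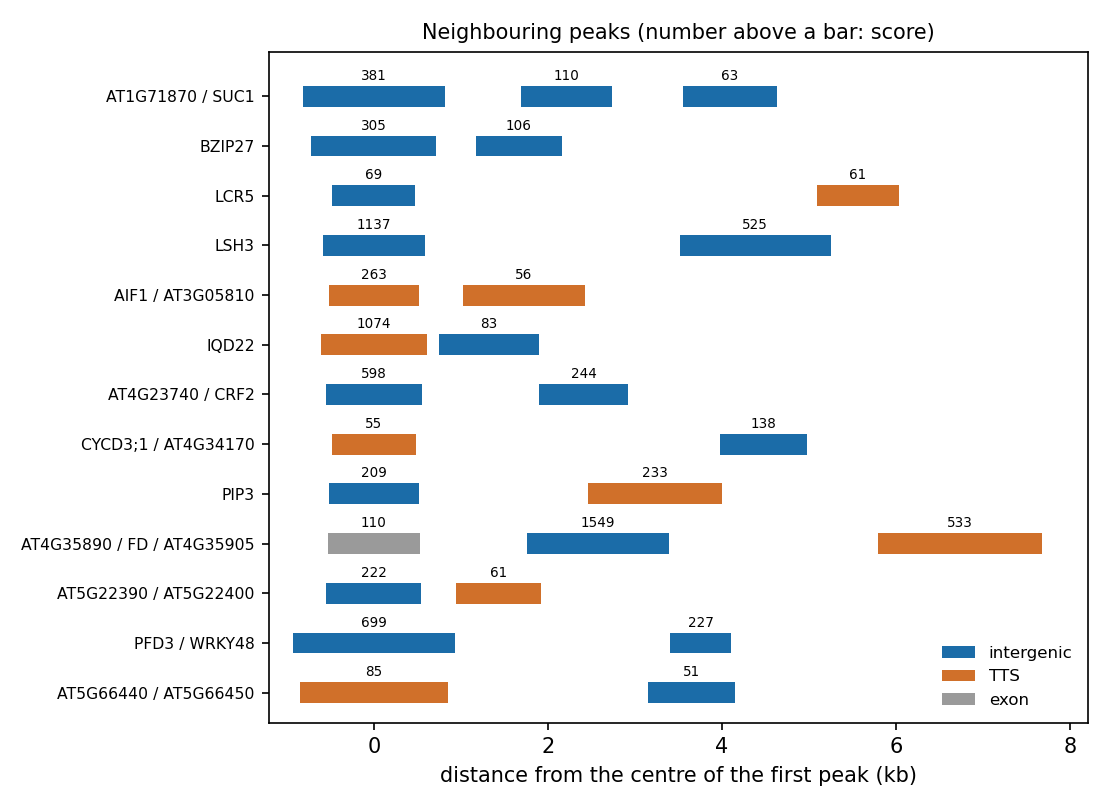
The 13 groups with at least 2 intergenic or 3' end peaks, drawn to scale as bars from start to end, with the distance from the centre of the first peak in kb on the horizontal axis and the score above each bar; colours give the class. FD stands between an intergenic peak of 1549.4 and a TTS peak of 533.0, and the AT1G71870 and SUC1 gap holds 3 intergenic peaks.

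Genes of flowering, meristems and hormones were found among the genes at these peaks. A gene counted when it was the nearest promoter or was named in the annotation of one of the 203 peaks, which held for 225 of 37899 nuclear genes in the gene table (0.594%). In a list of 30 genes of flowering and floral identity 6 counted (20.0%, 9.51 to 37.3), in a list of 33 genes of meristems, boundaries and organ growth 7 (21.2%, 10.7 to 37.8), and in a list of 28 hormone genes 10 (35.7%, 20.7 to 54.2). In a list of 13 photosynthesis genes none counted, which allows a share of up to 23.1%. PSAF, a photosystem I gene outside this list, did count, through its TTS peak (score 67.0). With peaks of every class counted, the numbers for the lists, in the same order, were 16, 14, 12 and 0. The share of all nuclear genes was not calculated for peaks of every class, so 0.594% is no base for these numbers. The lists were drawn up with earlier results of these data known, so these shares are a description and no independent evidence.

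The flowering genes were FD, FDP, FT, SOC1, TEM1 and UFO. FT, the florigen gene, had an intergenic peak centred 4020 bp downstream of its TSS (score 125.1), on chromosome 1 from 24334906 to 24335990. TEM1, a repressor of FT, had one 1462 bp upstream (352.8) that was 2060 bp wide. AP1, CAL, FUL, LFY, AG, PI, SEP4, LMI2, SPL4 and SPL5 had peaks of other classes only. The florigen and its bZIP partners were thus at intergenic or 3' end peaks, while the listed MADS-box genes other than SOC1 that had a peak were not.

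Of the meristem and growth genes, LSH3 and GRF5 had the highest scores. BOP1, a boundary gene that patterns leaf and flower bases, had an intergenic peak 1887 bp upstream (656.2) and a much weaker promoter peak (56.5). The other genes had weaker intergenic peaks: STM, a homeobox gene that maintains the meristem, at 4846 bp upstream (88.5), CUC3, a NAC gene of boundaries, at 1702 bp (78.7), and ATH1, a homeobox gene that partners with STM, at 1002 bp (74.9). At STM the promoter peak was the stronger (367.4), and at CUC3 and ATH1 the peak inside the gene was (128.3 and 97.7). At BOP1 and ANT the intergenic peak was the stronger.

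The hormone genes covered auxin, gibberellin and cytokinin. ARF5 (MP), an auxin response factor gene needed for flower initiation, had an intergenic peak 3982 bp upstream (638.9), on chromosome 1 from 6881973 to 6883821. ARF6, a related factor, had one at 2374 bp (237.7), and IAA17 (AXR3), a repressor of auxin response, one at 1843 bp (98.4). YUC1 had a weak intergenic peak 3088 bp downstream of its TSS (62.3), far below the 696.8 of YUC4. Of the gibberellin genes, GA20OX1, which acts in biosynthesis, had a peak 2726 bp upstream (241.7), and GA2OX4, which acts in breakdown, one 2154 bp upstream (192.5). Of the cytokinin genes, ARR3, a response regulator gene, had a TTS peak (313.8), and IPT5 had its 3' UTR peak. Of the 12 hormone genes with a peak of any class, 2 had it elsewhere: ELA1 in the promoter and CKX3 in an exon.

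**Figure D5:**
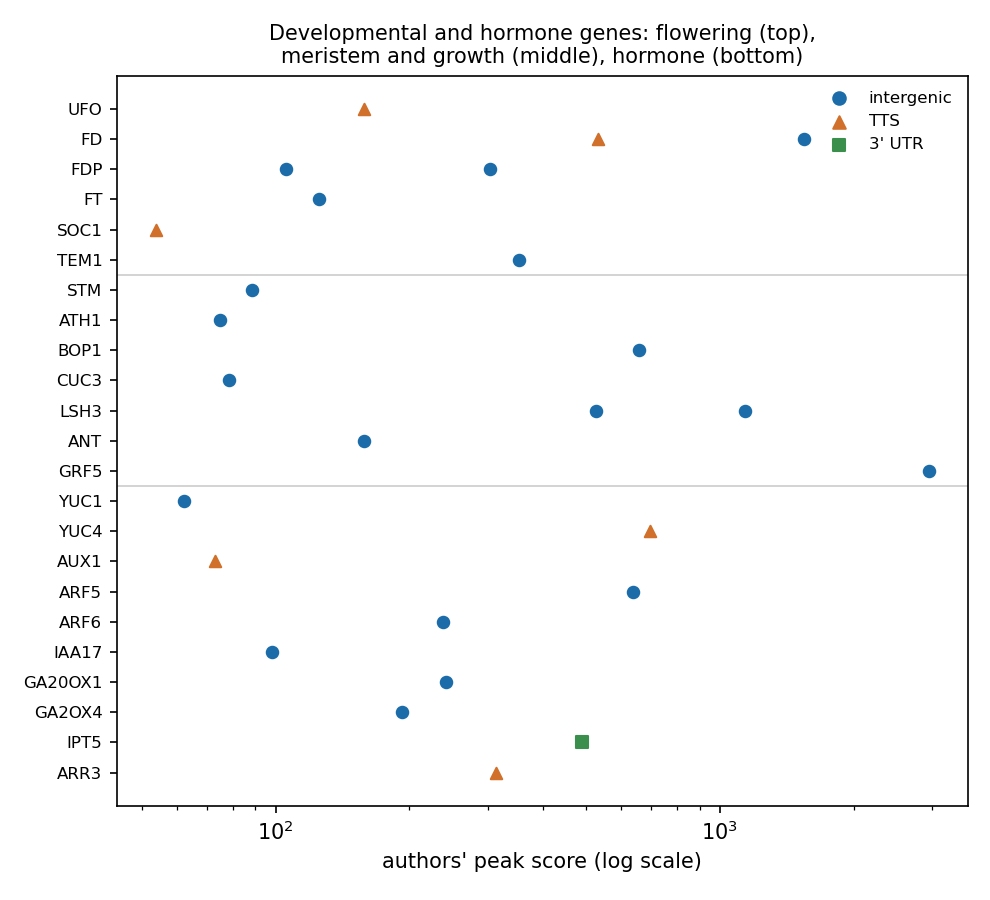
Score (log scale) of the intergenic, TTS and 3' UTR peaks at genes of the flowering list (top), the meristem and growth list (middle) and the hormone list (bottom); symbols give the class, and a gene with several peaks has several symbols. Scores run from 53.7 at SOC1 to 2952.3 at GRF5.

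By the descriptions in the deposited annotation, 27 of 121 intergenic peaks were nearest to a gene described as a transcription regulator (22.3%, 15.8 to 30.5), 8 of 75 TTS peaks (10.7%, 5.5 to 19.7), 25 of 214 promoter peaks (11.7%, 8.04 to 16.7), 10 of 66 exon peaks (15.2%, 8.44 to 25.7) and 12 of 38 intron peaks (31.6%, 19.1 to 47.5). The share was highest in introns, and the interval of intergenic peaks overlaps that of each other class named. Of the 27 intergenic cases, 26 were upstream of the gene and 1 was downstream. Most intergenic peaks are upstream, so the bases differ. The shares were 26 of 98 upstream peaks (26.5%, 18.8 to 36.0) and 1 of 23 downstream peaks (4.35%, 0.772 to 21.0), and these intervals overlap. Genes described only as hypothetical protein made up 16 of 121 intergenic (13.2%, 8.31 to 20.4), 20 of 75 TTS (26.7%, 18.0 to 37.6), 50 of 214 promoter (23.4%, 18.2 to 29.5), 7 of 66 exon (10.6%, 5.23 to 20.3) and 1 of 38 intron peaks (2.63%, 0.466 to 13.5). Over all 529 peaks the shares were 16.1% for transcription regulators (13.2 to 19.4) and 18.3% for hypothetical proteins (15.3 to 21.9). The words that made a description count were chosen after the data were seen.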

How the data were processed

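The deposited file is 1 list of peaks for the anti-LFY library. Per the file headers, peaks called against a contrast, which the header does not name, were annotated by the HOMER program annotatePeaks.pl for genome tair10. The tools FastQC, HOMER and MACS 1.4 and the build TAIR10 are named per the submitters' processing notes. For the aligner, the peak threshold and duplicate reads, the answer is not given in the sources used here. The peak score is the authors' deposited value, and the file does not state its scale.

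Members were taken from the Annotation column, and loci were compared without the transcript number. Symbols, biotypes and gene order came from a RefSeq table of assembly TAIR10.1, which held 190 of the 197 nearest genes. Its coordinates were used only for gene order. Members, gene lists and named genes were chosen with earlier results of these data known. Named by rule were the 10 intergenic and 8 TTS peaks of highest score, all 3' UTR peaks, list genes, extremes of width, distance and score, and genes with several such peaks. Other genes, among them those of the groups of neighbouring peaks, were chosen after their values were seen. No genome sequence was used here, so no sequence is printed. Shares carry 95% Wilson intervals and medians 95% binomial intervals, checked on simulated data. Alternatives were the 265 higher-scoring peaks, limits on width and TSS distance, and other definitions of nearby, reaching and naming. Calculations used Python 3.11.15, pandas 2.3.3 and SciPy 1.17.1, and figures matplotlib 3.10.9.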

Additional observations from a re-analysis of the deposited data

Results flagged for a closer look

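The detailed annotation, which no comparison above draws on, puts the centres of 5 of the 121 intergenic peaks (4.13%, 1.78 to 9.31) inside annotated transposons. A count of 0 would allow up to 2.48%, which lies within that interval. Over all 529 peaks the share was 0.945% (0.404 to 2.19). The count was 0 among the 75 TTS peaks, the 7 3' UTR peaks and the 326 peaks outside the 3 classes. No difference between classes was tested. These 5 peaks were upstream of MSL10 (score 658.8, 1004 bp), AT1G66920 (492.8, 1334 bp), AT1G23700 (165.8, 1440 bp), AT1G12200 (135.2, 1498 bp) and KP1 (52.0, 4901 bp).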

How the results depend on the processing

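Of 57 alternative values for 16 results, 48 stayed within the interval of the reported value or, for counts, within 1.5 times of it. The upstream share of intergenic peaks was 89.0% within 3 kb of a TSS, and 82.4% among the 265 higher-scoring peaks. Among the latter, the median width of intergenic peaks was 1138 bp and the meristem and growth list kept 4 genes. Shares with another peak nearby moved most: for intergenic peaks 12.2% among the 265 higher-scoring peaks, 13.4% within 3 kb of a TSS, 13.2% for a gap of 2 kb and 32.2% for one of 10 kb, and for TTS peaks 9.52% among the 265 and 12.0% for 2 kb. The first settings leave fewer peaks to be neighbours. The share of 3' end peaks with another nearest gene ran from 36.2% to 45.8%. No paired analysis was possible because each group has 1 library, and for the same reason no replicate could be left out. Depth and signal over input are unknown here, so the precision of a single peak is too.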

Other observations

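The genes named here were on no list and were picked after their values were seen, so they are single values and show nothing about a pathway. BRI1, the brassinosteroid receptor gene, had an intergenic peak 3118 bp upstream (score 669.0). BKI1, an inhibitor of BRI1, was nearest to a TTS peak of AT5G42740, 3265 bp downstream of its TSS (256.0). BRH1, a brassinosteroid-responsive RING-H2 gene, and AIF1, a bHLH gene found through a suppressor of BRI1, had peaks at their own 3' ends (272.2 and 262.8).

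HAM3, a GRAS gene of the shoot meristem, had a peak at its 3' end (231.4), as did the WOX gene PRS (151.5) and the D-type cyclin gene CYCD3;1 (55.4). CYCA2;3, an A-type cyclin gene, had an intergenic peak 1481 bp upstream (179.2). CLE5, a gene for a small signalling peptide, had one 3492 bp upstream (75.4). A TTS peak at AT2G45161 (162.0), a locus not found in the gene table, stands next to HAM1 by locus code.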
